A study of Rattus norvegicus with 3 samples.

Results

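Glucocorticoid receptor target genes were followed in neonatal rat ventricular cardiomyocytes, the contractile muscle cells of the newborn heart's ventricles, grown in culture. The 10 genes chosen are well-known direct targets of the receptor: Fkbp5, Tsc22d3, Zbtb16, Klf9, Cebpb, Cebpd, Errfi1, Ddit4, Rasd1 and Sult1a1. They were chosen with earlier results of these data known. A gene was found by matching the accession of each array probe to rat RefSeq transcripts. Of the 10 genes, 9 had a matched probe, out of 15168 genes with a matched probe on the array, and Rasd1 was not analysed here. The 9 genes were read by 10 probes, 2 of them for Ddit4.

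There were 3 groups, each 1 pool of cardiomyocytes and 1 one-colour Agilent array. The control cells carried an empty vector. The HSD1 cells carried an expression vector for 11β-HSD1, and the HSD1+BVT cells carried the same vector and also received BVT.2733, an inhibitor of 11β-HSD1. All groups were thus transfected, and no group received the inhibitor with the empty vector. The sources used here do not state the dose, the exposure time, the promoter of the vector, the species of its insert, the steroid content of the medium or how many cultures made up each pool. The study asked which transcripts might link 11β-HSD1 to cardiomyocyte hypertrophy. With 1 array per group there are no replicates, so differences between groups carry no test and no error between cultures.

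11β-HSD1 is an enzyme of the endoplasmic reticulum that turns inactive 11-keto glucocorticoids, such as cortisone and 11-dehydrocorticosterone, into the active hormones cortisol and corticosterone inside the cell. The active hormone binds the glucocorticoid receptor, encoded by Nr3c1, which moves from a chaperone complex in the cytosol to the nucleus and binds DNA at glucocorticoid response elements. Many of its targets damp the signal or other pathways: they include a co-chaperone that lowers the receptor's affinity for hormone, inhibitors of inflammatory and growth factor signalling, and transcription factors that carry the response further. In heart muscle cells the receptor is known for roles in maturation and in growth.

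All levels below are log2 processed signals minus the array's own 75th percentile, so 0 is the 75th percentile of the spots of that array. Levels of different genes come from different probes and are not set against each other. A difference between arrays is given on the log2 scale or as a fold. Its technical SD comes from the 100 probes nearest in brightness among those printed many times on each array. It covers the spread between repeat spots within an array alone. Differences between arrays in labelling, hybridisation, scan or scaling are not part of it. A gene was called higher or lower at 2-fold or more, among genes with signal well above background on both arrays, a flag that the scanner software sets for each spot. On the 3 arrays 82.0%, 82.5% and 81.2% of the 42877 spots were well above background, no spot was saturated, and the arrays' 75th percentiles were 1320, 1169 and 1549 (control, HSD1, HSD1+BVT). The control and HSD1 arrays shared scan 1 and the HSD1+BVT array was alone in scan 2, so in either comparison with HSD1+BVT the inhibitor cannot be told apart from the scan.

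The sequences just upstream of the genes are shown because the receptor binds DNA directly, and because the members that rose most can be compared there letter by letter. RefSeq, on the rat build GRCr8, gave 10 start sites for 8 of the 10 genes, all but Zbtb16 and Cebpd, and the 250 bases before each were searched on both strands for the palindromic element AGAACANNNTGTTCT and for either of its arms, AGAACA or TGTTCT, which lie inside it. The windows below hold the best match of each gene that was measured on both arrays and 2-fold or more above control in HSD1, with the matching letters of the element in capitals and up to 15 bases on either side. Each is written 5′ to 3′ on the strand of its gene.
Sult1a1, chr1:190706172-190706216, minus strand: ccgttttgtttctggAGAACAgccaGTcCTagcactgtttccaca
Errfi1, chr5:166606591-166606627, plus strand: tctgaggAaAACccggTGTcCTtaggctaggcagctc
Tsc22d3 start site 1, chrX:109066606-109066639, minus strand: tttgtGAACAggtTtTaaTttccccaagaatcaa
Tsc22d3 start site 2, chrX:109065587-109065631, minus strand: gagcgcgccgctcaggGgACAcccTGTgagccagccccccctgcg
Tsc22d3 start site 3, chrX:109010181-109010225, minus strand: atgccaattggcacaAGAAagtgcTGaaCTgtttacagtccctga
Fkbp5, chr20:6543755-6543799, minus strand: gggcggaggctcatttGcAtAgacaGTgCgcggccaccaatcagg

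The whole element, 12 fixed letters, was in none of these 10 upstream regions, and in 4 of 33469 upstream regions of the table, 0.012%. Sult1a1 came nearest, with 10 of 12 letters starting 89 bases before its start site. A match of 10 or more letters was in 1.58% of all upstream regions. Errfi1 had 9 of 12, a match reached by 12.4% of regions. The start sites of Tsc22d3 had 8, 7 and 8 letters, and 52.6% of regions reached 8. Fkbp5 had 6, a match that 99.8% of regions reached. As background, the receptor-bound elements described for this gene lie in its introns. Among the members not called higher, Klf9 and Ddit4 had 7 letters each and Cebpb 6, and Rasd1, which had no probe, had 8. These counts overlap those of Tsc22d3 and Fkbp5. One arm of the element in full was in 1 of the 10 regions, that of Sult1a1, against 17.5% of all regions. The 250 bases of Sult1a1, chr1:190706113-190706362 on the minus strand, are printed whole for that reason, with the arm in capitals.
Sult1a1 upstream region: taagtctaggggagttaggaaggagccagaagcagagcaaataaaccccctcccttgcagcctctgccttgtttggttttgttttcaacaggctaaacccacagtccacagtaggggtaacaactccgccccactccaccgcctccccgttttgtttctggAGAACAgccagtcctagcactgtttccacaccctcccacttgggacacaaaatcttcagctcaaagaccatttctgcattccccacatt

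All 9 measured genes were lowest in control cells. Over all genes measured on both arrays, 59.3% stood above control in HSD1 and 58.2% in HSD1+BVT. The share of all genes lowest in control was not computed. In HSD1 cells 5 of the 9 were raised, either 2-fold or more between measured signals (Sult1a1, Fkbp5, Errfi1, Tsc22d3) or from below background (Zbtb16). Of all 11876 genes measured on both of these arrays, 1.34% were higher by 2-fold or more, a share to set beside the first 4 of these genes and not beside Zbtb16. In HSD1+BVT cells none of the 9 was 2-fold or more below HSD1, where 0.581% of all genes were. Klf9, Cebpb, Cebpd and Ddit4 had risen by less than 2-fold, so a 2-fold return to control was not open to them. The level in HSD1+BVT lay below that in HSD1 for 6 genes and above it for Tsc22d3, Zbtb16 and Ddit4. The plot of levels by array shows the 9 genes side by side.

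**Figure D1:**
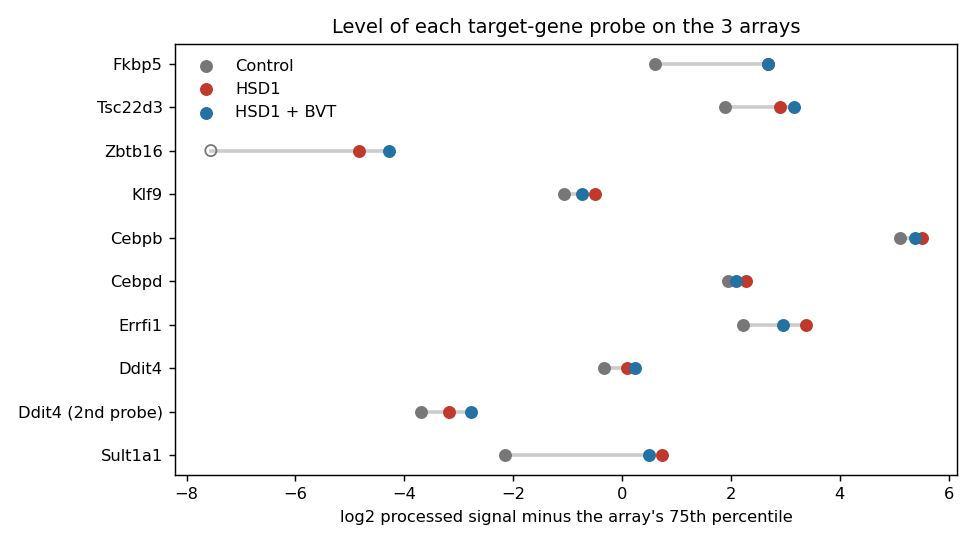
Level of each target gene on the 3 arrays, as log2 processed signal minus the array's 75th percentile, 1 point per array and gene; an open point marks a signal not well above background. The control point is the lowest for all 9 genes, and for Fkbp5 the points at 2.69 in HSD1 and 2.68 in HSD1+BVT lie on each other.

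Fkbp5 encodes a co-chaperone, FKBP51, that binds the receptor's Hsp90 complex and lowers its affinity for hormone, a short negative feedback loop. The control level was 0.62, against 2.69 in HSD1 and 2.68 in HSD1+BVT. The HSD1 and HSD1+BVT arrays were both high, and control alone was low. HSD1 stood above control by 2.08 (technical SD 0.054), a 4.22-fold difference, and 12 of the 11876 genes measured on both arrays had a larger rise. HSD1+BVT stood 4.19-fold above control. Between HSD1+BVT and HSD1 the difference was -0.01 with a technical SD of 0.050.

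Tsc22d3 encodes GILZ, a leucine zipper protein that binds NF-κB and AP-1 and mediates part of the anti-inflammatory action of glucocorticoids. The control level was 1.90, against 2.91 in HSD1 and 3.16 in HSD1+BVT. Here the HSD1+BVT array was the highest. HSD1 stood 1.01 above control (technical SD 0.056), 2.02-fold, which only just passed 2-fold: with cyclic loess it was 0.98, with the authors' own values 0.99 and with normexp background correction 0.95, all under 2-fold. Of the 11876 genes, 156 had a larger rise in HSD1. HSD1+BVT stood 1.26 above control, 2.40-fold, and 0.25 above HSD1.

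Zbtb16 encodes PLZF, a zinc finger repressor that is among the most steeply induced receptor targets in many cells. Its level was -7.55 in control, where the signal was not well above background, -4.83 in HSD1 and -4.28 in HSD1+BVT. It was the only one of the 9 genes whose control signal did not clear background. The control value is therefore only a bound, taken from the dimmest probe that cleared background on that array. The flag is set spot by spot, and a signal above that level can fail it, so such bounds are approximate. HSD1 was at least 3.85-fold higher than control and HSD1+BVT at least 5.64-fold higher. HSD1+BVT was 0.55 above HSD1 (technical SD 0.18), a difference that became -0.03 with normexp background correction. That correction adds an offset of 50 to each signal, and the processed signals of Zbtb16 were 41.1 in HSD1 and 79.9 in HSD1+BVT. The part of the offset in that change was not tested.

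Klf9, a Krüppel-like factor that represses many genes and that glucocorticoids and thyroid hormone both induce, had a control level of -1.07, with -0.49 in HSD1 and -0.73 in HSD1+BVT. It stayed within 2-fold, at 1.49-fold above control in HSD1 and 1.26-fold in HSD1+BVT. Cebpb and Cebpd are bZIP transcription factors of the C/EBP family, which act in the acute-phase response and in fat cell differentiation and often bind beside the receptor. Cebpb had levels of 5.11, 5.51 and 5.38 in control, HSD1 and HSD1+BVT, 1.32-fold and 1.20-fold above control. Cebpd had levels of 1.95, 2.28 and 2.10, 1.26-fold and 1.11-fold above control. In HSD1, 700, 1438 and 1915 of the 11876 genes had a larger rise than Klf9, Cebpb and Cebpd. In HSD1+BVT against control, 2419, 2973 and 4327 of the 11721 genes did. For these 3 genes the order of the arrays was the same: HSD1, then HSD1+BVT, then control. The gaps were small beside those of Fkbp5, though with the 75th percentile scaling each gap to control was over 2 technical SDs. This did not hold in every setting. For Cebpd in HSD1+BVT the gap was 0.15 (technical SD 0.052), and 0.09 with cyclic loess and 0.10 with quantile normalization or the authors' values. For Cebpb in HSD1+BVT it was 0.26 (technical SD 0.049), and 0.15 with cyclic loess and 0.13 with quantile normalization or the authors' values.

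Errfi1 encodes MIG6, a feedback inhibitor that binds the kinase domain of the EGF receptor family. Levels were 2.22 for control, 3.38 for HSD1 and 2.96 for HSD1+BVT. The 3 arrays were spread out, with HSD1+BVT in between. HSD1 stood 1.17 above control (technical SD 0.056), 2.25-fold, and 105 of the 11876 genes had a larger rise. HSD1+BVT stood 0.75 above control, 1.68-fold, below the 2-fold call. It fell by 0.42 from HSD1 (technical SD 0.052), 1.34-fold lower, the largest drop among the 9 genes and still within 2-fold.

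Ddit4 encodes REDD1, an inhibitor of mTORC1 that glucocorticoids, hypoxia and energy stress induce. The probe with the higher signal had a control level of -0.33, with 0.09 in HSD1 and 0.25 in HSD1+BVT, 1.34-fold and 1.49-fold above control. The second probe had levels of -3.69, -3.18 and -2.78, 1.42-fold and 1.88-fold above control. Both probes put the arrays in the same order, with HSD1+BVT highest, and both stayed within 2-fold. In HSD1, 1321 of the 11876 genes had a larger rise over control than the brighter Ddit4 probe. Rasd1, a Ras-like small GTPase first found as a dexamethasone-induced transcript and named for that, had no matched probe.

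Sult1a1 encodes a cytosolic sulfotransferase that conjugates phenols and is a long-known glucocorticoid-induced gene in rat liver. Levels were -2.15 for control, 0.73 for HSD1 and 0.49 for HSD1+BVT. The 2 vector arrays were far above control. HSD1 stood 2.89 above control (technical SD 0.066), 7.39-fold, and 4 of the 11876 genes had a larger rise. HSD1+BVT stood 6.25-fold above control and -0.24 from HSD1 (technical SD 0.056). It is the gene whose upstream region, printed above, held the closest match to the element.

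**Figure D2:**
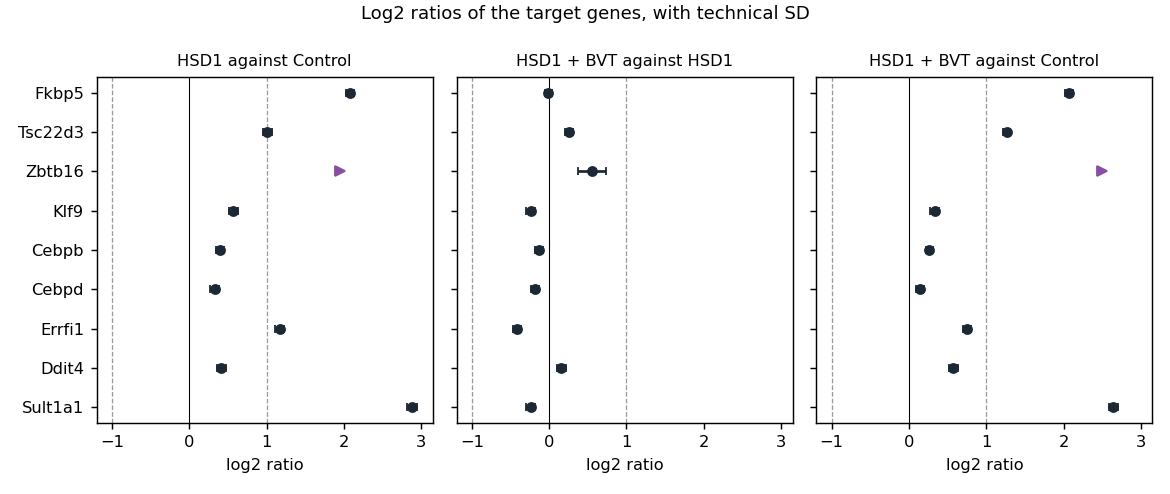
Log2 ratio of each target gene in the 3 comparisons, with a technical SD as the bar; a triangle marks the lower bound of Zbtb16 against control, and dashed lines mark 2-fold. In HSD1 against control every ratio was above 0, from 0.33 for Cebpd to 2.89 for Sult1a1, while HSD1+BVT against HSD1 ran from -0.42 to 0.55.

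The first comparison asks what the 11β-HSD1 vector did against empty vector. Of the 8 genes measured on both arrays, 4 were higher by 2-fold or more and 0 lower, and all 8 lay above 0. Their median was 0.79, without Zbtb16. Over all 11876 genes, 159 (1.34%) were higher and 65 (0.547%) lower, the median was 0.06, 59.3% lay above 0, and 95% of genes lay between -0.57 and 0.79. These counts over all genes moved to 117 higher and 92 lower under quantile normalization. In bulk samples like these, fewer cells of a type and less RNA per cell cannot be told apart.

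The second comparison asks what BVT.2733 changed in cells that carried the vector. Of 9 genes, 0 were higher and 0 lower by 2-fold, 3 lay above 0 and 6 below, and the median was -0.13. Over all 11703 genes measured on both arrays, 176 (1.5%) were higher and 68 (0.581%) lower. The median of all genes was 0.01, 51.2% lay above 0, and 95% lay between -0.66 and 0.82. The sign of the Fkbp5 difference turned to 0.01 with normexp background correction, as did that of Zbtb16 to -0.03. For the other 7 genes the sign was the same in every setting tried.

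The third comparison sets vector plus inhibitor against empty vector, and it shares the control array with the first and the HSD1+BVT array with the second. Of 8 genes measured on both arrays, 3 (Sult1a1, Fkbp5 and Tsc22d3) were higher and 0 lower, and all 8 lay above 0. Their median was 0.66, without Zbtb16. Over all 11721 genes, 345 (2.94%) were higher and 88 (0.751%) lower. The median of all genes was 0.05, 58.2% lay above 0, and 95% lay between -0.68 and 1.06. Under quantile normalization the counts became 194 higher and 155 lower.

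**Figure D3:**
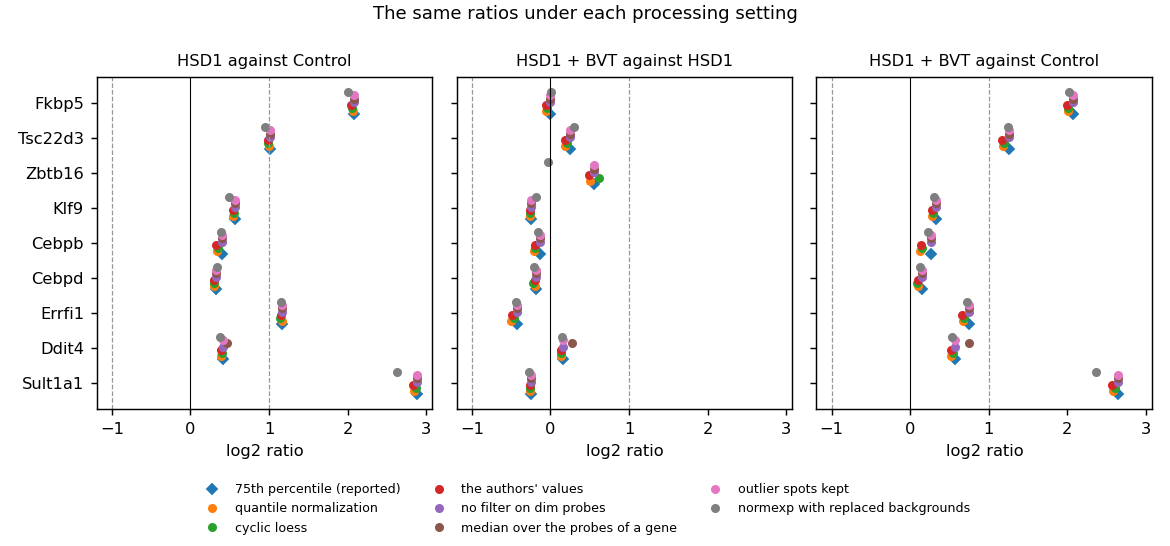
Log2 ratio of each target gene under every way of processing the arrays that was tried, with 1 panel per comparison, 1 colour per setting and dashed lines at 2-fold; Zbtb16 is drawn only where both arrays were well above background. Only Tsc22d3 crosses a line, in HSD1 against control, where it runs from 0.95 to 1.01.

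The enzyme and the receptor themselves were measured on the same arrays. The Hsd11b1 probe, which reads the rat transcript, had a control level of 3.39, with 3.86 in HSD1 and 3.76 in HSD1+BVT, 1.39-fold and 1.30-fold above control. Whether that probe can read the transcript of the vector was not tested, since the insert is not given. Nr3c1, the glucocorticoid receptor, had levels of 0.48, 0.29 and 0.23, or -0.19 and -0.25 against control. A second Nr3c1 probe gave -0.80 and -0.79, so the 2 probes differed in size and had the same sign. Of 11 genes of the receptor axis, which also held the cortisol-inactivating enzyme Hsd11b2, the mineralocorticoid receptor Nr3c2 and the Hsp90 chaperones, 9 had a probe and all 9 were measured. None was 2-fold away in any comparison. The medians were -0.02 for HSD1 against control, -0.00 for HSD1+BVT against HSD1 and 0.05 for HSD1+BVT against control. In the same order, 1.34%, 1.5% and 2.94% of all genes were higher by 2-fold or more, and 0.547%, 0.581% and 0.751% lower. With shares this small, the lack of calls does not set these 9 genes apart.

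Beside the 10 genes, 35 other known receptor targets were listed, and 33 of them had a probe. Of the 31 measured on both arrays, HSD1 against control had 6 higher and 1 lower, 29 above 0, and a median of 0.46. The 6 were Crispld2 (1.69), a secreted protein that damps inflammatory signals, the cell cycle inhibitor Cdkn1c (1.58), the metallothioneins Mt1 (1.46) and Mt2A (1.11), the kinase Sgk1 (1.29), which controls sodium transport, and Thbd (1.25), thrombomodulin. The gene that was lower was Mertk, a receptor kinase for the engulfment of dying cells, at -1.80. Second probes gave 1.64 for Cdkn1c and 1.42 for Mt2A, and for Thbd at least a 2.44-fold rise. Over all genes 1.34% were higher, 0.547% lower and 59.3% above 0 in this comparison.

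In HSD1+BVT against HSD1, 1.5% of all genes were higher, 0.581% lower and 51.2% above 0. Among the same 31 genes there were 2 higher, 0 lower, 13 above 0 and 18 below, with a median of -0.03. The 2 were Angptl4 (2.41), an inhibitor of lipoprotein lipase, and Pdk4 (1.84), which shuts pyruvate out of the mitochondrion by blocking pyruvate dehydrogenase. Both are also known targets of PPAR receptors. In HSD1+BVT against control, 2.94% of all genes were higher, 0.751% lower and 58.2% above 0. The 31 genes had 6 higher and 1 lower, 28 above 0, and a median of 0.57. Those 6 were Angptl4 (2.38), Pdk4 (2.28), Mt1 (1.62), Crispld2 (1.25), Sgk1 (1.21) and Mt2A (1.06), and the lower one was again Mertk, at -1.92. Cdkn1c and Thbd were within 2-fold there, at 0.86 and 0.94.

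Genes of the same families as the targets, or with like roles, gave a further reference. Of 32 such genes 29 had a probe, and 23 were measured on both arrays of each comparison. None of the 23 was called in any comparison, with medians of 0.07, -0.01 and 0.07 in the order above and 16, 10 and 15 genes above 0. Over all genes 59.3%, 51.2% and 58.2% lay above 0. The shares of all genes called higher were 1.34%, 1.5% and 2.94%, and those called lower 0.547%, 0.581% and 0.751%. With shares this small, the lack of calls does not set the 23 genes apart. Fkbp4, the co-chaperone FKBP52 that promotes hormone binding where FKBP51 opposes it, stood at -0.07 in HSD1 and -0.08 in HSD1+BVT against control. Tsc22d1 stood at 0.22 and 0.66. Spry2 and Spry4, which like Errfi1 restrain growth factor signalling, stood at -0.00 and 0.01 in HSD1, and at 0.18 and -0.19 in HSD1+BVT. A second, dimmer Spry4 probe gave -0.00 in HSD1 and 0.14 in HSD1+BVT, so the 2 probes differed in sign in HSD1+BVT. Sult1c2, another cytosolic sulfotransferase, stood at -0.02 and 0.54. Sult1c3, of the same family, was well above background only in HSD1. It read 2.30-fold above control, a plain ratio and not a bound. Its control level of -6.64 did not clear background, yet lay above the dimmest level that did, -6.77. In HSD1+BVT Sult1c3 was at least 2.40-fold lower than in HSD1, by the dimmest cleared level of the HSD1+BVT array. The largest ratios to control in HSD1 among the 23 were those of Rasd2 (0.65), a small GTPase related to Rasd1, Cebpe (0.52) and Fkbp3 (0.51). Their technical SDs were 0.11, 0.36 and 0.054. Cebpe was dim, with a control level of -6.24, near the dimmest level that cleared background.

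**Figure D4:**
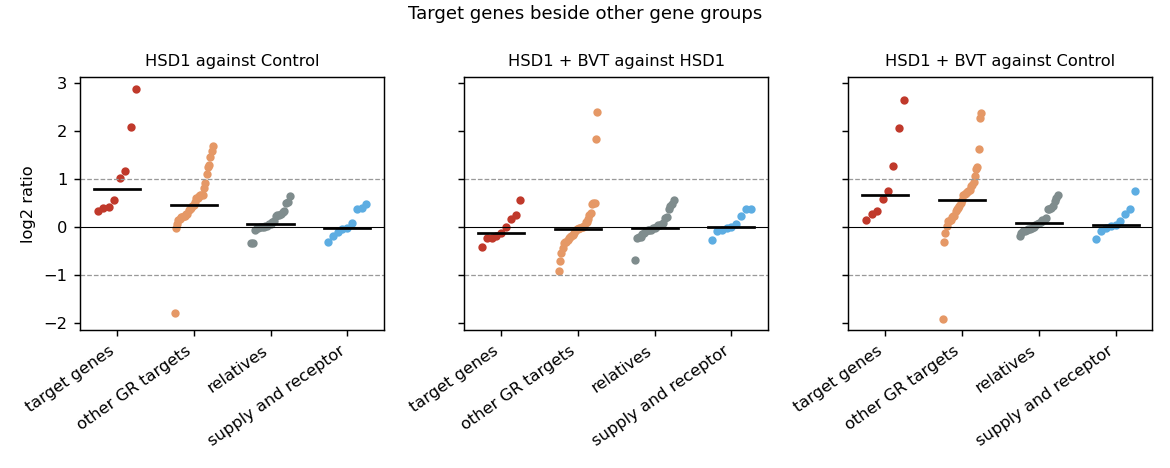
Log2 ratios of the target genes beside those of other receptor targets, relatives of the targets and the receptor axis (supply and receptor), 1 point per gene measured on both arrays, with a bar at the median of each list and dashed lines at 2-fold. In HSD1 against control the medians were 0.79 for the target genes, 0.46 for the other targets, 0.07 for the relatives and -0.02 for the receptor axis. The lists were chosen with earlier results of these data known, so the gaps between their medians are descriptive only.

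Markers of the cell types that such a culture can hold were read on the same arrays. Of 10 cardiomyocyte markers, 9 had a probe and all 9 were well above background on all arrays. Their summed linear signal, relative to the 75th percentile, was 282, 316 and 330 in control, HSD1 and HSD1+BVT. Tnnt2 alone made 37.0% to 39.3% of that sum. Against control, 7 of the 9 lay above 0 and 2 below in HSD1, and 6 above and 3 below in HSD1+BVT. The median ratios were 0.13 and 0.14, and Myl2 was the lowest in HSD1, at -0.45. The 7 fibroblast markers summed to 187, 187 and 178, of which Col1a2 alone made 41.2% to 47.7%. Their median ratio to control was -0.08 in HSD1 and -0.18 in HSD1+BVT, with 5 of 7 below 0 and 2 above in each. Lum, the lowest, stood at -0.884 and -0.995. The 6 smooth muscle and pericyte markers summed to 41.4, 46.4 and 34.0, of which Acta2 alone made 74.0% to 76.5%. The markers of both lists were all well above background. Of 6 endothelial markers with a probe 4 were well above background, Tie1 and Cldn5 were not on any array, and the sum was 5.21, 8.05 and 9.63, of which Kdr alone made 91.7% to 94.2%. The 7 macrophage and leucocyte markers, all well above background, summed to 12.8, 18.4 and 14.2, of which Lyz2 alone made 88.2% to 91.8%. In HSD1 against control the endothelial markers had a median ratio of 0.71, with 4 of 4 above 0. The macrophage markers had one of 0.20, with 5 of 7 above 0, where 59.3% of all genes lay above 0. Mrc1, the mannose receptor of macrophages, was higher there by 2.96-fold and in HSD1+BVT against control by 2.04-fold, and it was the only marker called higher in any comparison. In HSD1+BVT against HSD1 the endothelial median was -0.13 and the macrophage median 0.24, each opposite in sign to the change of its sum. In that comparison all 6 smooth muscle and pericyte markers lay below 0, with a median of -0.49, where 51.2% of all genes lay above 0. The markers called lower there were the pericyte gene Rgs5 (-1.11) and the endothelial receptor Tek (-1.05). Rgs5 stood at -1.40 in HSD1+BVT against control. The part of these markers in the differences of the target genes was not tested.

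For the 3 targets well above background on all arrays and 2-fold above control in both vector groups, which leaves out Zbtb16 for its dim control signal, the genes nearest in pattern were found among 11599 others well above background on all arrays, by the distance between their 2 log2 ratios to control. Dpp4 (2.09 in HSD1 and 1.81 in HSD1+BVT) and Serpina3n (2.23 and 1.85) lay nearest to Fkbp5, at distances of 0.26 each. Cacna1a (1.02 and 1.27) and Fpr2l1 (0.97 and 1.31) lay nearest to Tsc22d3, at 0.015 and 0.060. Tnfrsf17 (2.70 and 2.27) lay near Sult1a1, at 0.42. These genes are given for their values on 3 arrays alone.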

How the data were processed

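Total RNA of 3 pools, 1 per group, was labelled with Cy3 and hybridised to Agilent one-colour arrays. Per the file headers, spots were quantified with Feature Extraction 11.0.1.1, also named in the submitters' processing notes. The deposited intensity values are each spot's processed signal, background-subtracted and linear. The authors also deposited log2 values of the same arrays, used only as an alternative; their processing is not stated in the labels or headers.

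Levels are log2 processed signal minus the 75th percentile over all non-control spots, after which outlier spots (311, 409 and 363 in control, HSD1 and HSD1+BVT) were dropped and each probe's spots averaged. Of 30367 probes, 18005 matched 1 gene through RefSeq (GRCr8). A gene took its brightest probe. The array design used an older build, so no probe coordinates are given. With 1 array per group no significance test was run; the ratio calculation itself was checked on simulated data. The named genes are the members, Hsd11b1 and Nr3c1, other listed targets 2-fold away in any comparison, nearest relatives of members 2-fold away, and the genes nearest in pattern; markers, the relatives with the largest ratios, Sult1c3 and Cd163 were named after their values were seen. Of those nearest in pattern, 1 is not reported here. Members and lists were chosen with earlier results of these data known. Scripts used Python 3.11.15, pandas 2.3.3, R 4.3.3 and limma 3.58.1. Alternatives were quantile, cyclic loess, normexp with an offset of 50, the authors' values, no filter, outliers kept, a 1.5-fold call and the median over probes.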

Additional observations from a re-analysis of the deposited data

How the results depend on the processing

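Each target gene measured on both arrays of a comparison kept its sign in every setting, apart from Fkbp5 (0.01) and Zbtb16 (-0.03) in HSD1+BVT against HSD1 with normexp. In HSD1 against control 4 genes were higher, 3 with cyclic loess, the authors' values or normexp, and 5 without the filter on dim probes; the gene lost was Tsc22d3 (0.98, 0.99 and 0.95). In HSD1+BVT against control 3 were higher, and 4 at 1.5-fold or with no filter. The median of the genes in HSD1+BVT against control was 0.60 with quantile normalization, 0.59 with the authors' values, 0.75 with no filter and 0.75 with the median over probes, and in HSD1 against control 1.01 with no filter. Over all genes, higher and lower calls in HSD1 against control were 159 and 65, and 117 and 92 with quantile normalization, 114 and 93 with cyclic loess, 113 and 90 with the authors' values and 64 and 28 with normexp. In HSD1+BVT against control they were 345 and 88, and 194 and 155, 233 and 146, 190 and 149, and 100 and 33 in the same order, and in HSD1+BVT against HSD1 176 and 68, and 60 and 16 with normexp. The cause was not tested. The planned normexp could not be used as written, because 4 spots of the HSD1 array had a local background over 10 times the array's median; the version reported, chosen after seeing the data, replaced those by the median, and it shifted the median of all genes in HSD1+BVT against HSD1 by -0.105. No paired analysis was possible because each group has 1 array, and no array could be left out. Dim probes limit Zbtb16.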

Other observations

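Cd163, a haemoglobin scavenger receptor of macrophages and a known receptor target, was well above background only in HSD1, at least 1.51-fold above control, and at least 1.44-fold lower in HSD1+BVT than in HSD1. It was singled out after its values were seen.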
